A study of Homo sapiens with 48 samples.

Results

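The kinetochore and spindle checkpoint genes described here were chosen by symbol, with no measured value used: every gene whose symbol begins with CENP, which gave 22 genes, and 25 genes named one by one (BUB1, BUB1B, BUB3, MAD2L1, TTK, NDC80, NUF2, SPC24, SPC25, KNL1, ZWINT, ZW10, MIS12, DSN1, NSL1, PMF1, SKA1, SKA2, SKA3, AURKA, AURKB, BIRC5, INCENP, CDCA8 and PLK1). All 47 were among the 11947 genes of the total RNA table, and 46 were among the 11145 genes of the ribosome-protected fragment (RPF) table. The gene found only in total RNA was CENPS-CORT, a readthrough gene that overlaps CENPS, so its reads and those of CENPS cannot be separated with certainty.

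The cells were SW480, an established human colorectal cancer line with mutant APC. The 3 lines each carried 1 doxycycline (DOX)-inducible short hairpin RNA: a non-targeting hairpin (shCTRL), a hairpin against EIF2B1, which encodes the eIF2Bα subunit (shEIF2B1), or a hairpin against EIF2B4, which encodes the eIF2Bδ subunit (shEIF2B4). Each line was a lentivirally transduced, drug-selected pool that was left uninduced (-DOX, with the vehicle DMSO) or given 1 µg/ml DOX for 5 days (+DOX), and every one of the 6 groups had 4 replicates prepared in separate weeks. RPFs, which count ribosomes on coding sequences, and total cytoplasmic RNA were sequenced from each of the 24 lysates, which gave 48 libraries. eIF2B is the exchange factor that recharges the initiation factor eIF2, and its loss activates the integrated stress response.

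The kinetochore is the protein machine that joins a chromosome to spindle microtubules. A centromere layer built on CENP-A nucleosomes (the constitutive centromere-associated network, CCAN) carries the KMN network of KNL1, MIS12 and NDC80 complexes, which binds microtubules together with the SKA complex. Unattached kinetochores recruit the checkpoint kinase TTK and the BUB and MAD proteins, which hold back the anaphase promoting complex. The chromosomal passenger complex (AURKB, INCENP, BIRC5 and CDCA8) corrects wrong attachments, and AURKA and PLK1 build the spindle. Transcripts of most of these proteins are known to peak in G2 and mitosis, so in cultures of dividing cells fewer mitotic cells and less of each RNA per cell cannot be told apart.

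All values below are on the log2 scale of the deposited tables, and a response is the +DOX minus -DOX difference of a knockdown line less that of shCTRL, so a negative response means a fall beyond that of the control line. A gene was called where its p from limma, with the week as a block, was under 0.1 after Benjamini-Hochberg adjustment over all genes of the table. Read depth is not given, because the tables hold no counts and none were used here. The targeted genes fell on induction against shCTRL: EIF2B1 by a response of -0.53 in RPFs and -0.67 in total RNA in shEIF2B1, and EIF2B4 by -0.49 in total RNA in shEIF2B4, while the RPF response of EIF2B4, -0.48, did not pass the test (limma adjusted p = 0.236). All 7 listed target genes of the integrated stress response rose in RPFs in both knockdown lines. Of 10 colorectal epithelial markers 6 were in the tables, and none of 4 markers of leukocytes, fibroblasts and endothelium was. The uninduced shEIF2B4 RPF library of replicate 1 stood apart from the other 3 of its group: by Dixon's criterion for an outlying value it lay apart for 8 of 46 members and 11.6% of all genes, beside at most 3.11% of genes in any other RPF library. Its median over members was 7.02 against 7.49 to 7.63 in the other 3. It held the lowest level of its group for 32 of 46 members, but a low replicate 1 was not particular to it, since uninduced shCTRL had 30 of 46 lowest there and induced shEIF2B4 28. RPF and TE responses of shEIF2B4 are given with and without that lysate.

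On induction of shEIF2B1, RPFs of 25 of 46 members fell against shCTRL and 1, CENPB, rose, where 15.3% of all genes fell and 12.0% rose. The median response over members was -0.42, beside -0.011 over all genes, and 37 of the 46 responses were below 0. The direction was the same in all 4 weeks for 25 of the 26 called members. A call itself favours members whose change varied little between weeks, so this is a description and not a further test. Of the 100 genes with the lowest RPF responses in the whole table, 7 were members. These responses hold both starting and final levels: 26 members were already higher than in shCTRL before DOX, and 11 were lower than in shCTRL after it. Of the 25 members that fell, 22 were among those 26 and 8 were among those 11. Without replicate 1 of both lines 17 were called, and without the week block 0 were called in limma, with 11 at an unadjusted p under 0.05.

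TTK (MPS1), the kinase that starts checkpoint signalling, had the lowest RPF response of all 11145 genes. In replicates 1 to 4 its RPF levels were 7.57, 8.82, 7.74 and 8.72 in uninduced shEIF2B1 and 6.43, 7.12, 6.85 and 7.52 after induction. Those of shCTRL were 6.84, 7.78, 6.98 and 7.97 without DOX and 7.30, 7.56, 7.33 and 8.28 with DOX. Every induced shEIF2B1 library was thus below every uninduced one of that line, whereas the shCTRL groups overlapped. The response was -1.46 (SE 0.18, 95% confidence interval -1.83 to -1.09, limma adjusted p = 2.94e-05).

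MAD2L1 (MAD2), the checkpoint protein that sequesters the anaphase activator CDC20, followed. Its RPF levels in shEIF2B1 were 9.44, 10.13, 9.43 and 10.26 before induction and 8.22, 9.12, 8.35 and 9.61 after it. In shCTRL they were 8.67, 9.48, 8.85 and 9.76 and then 8.78, 9.42, 9.08 and 9.64. The shEIF2B1 groups overlapped because weeks differed in level, but the induced library was the lower in each week, and the response was -1.04 (SE 0.14, limma adjusted p = 8.67e-05). NUF2, the partner of NDC80 at the microtubule-binding end of the KMN network, had RPF levels of 6.93, 8.23, 7.05 and 8.04 before and 6.10, 6.82, 6.33 and 7.24 after induction of shEIF2B1. The same gene in shCTRL stood at 6.50, 7.17, 6.61 and 7.21 without DOX and 6.61, 7.02, 6.65 and 7.56 with it. Its groups in shEIF2B1 overlapped too, with a fall in each week and a response of -1.03 (SE 0.17, limma adjusted p = 0.00089).

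**Figure D1:**
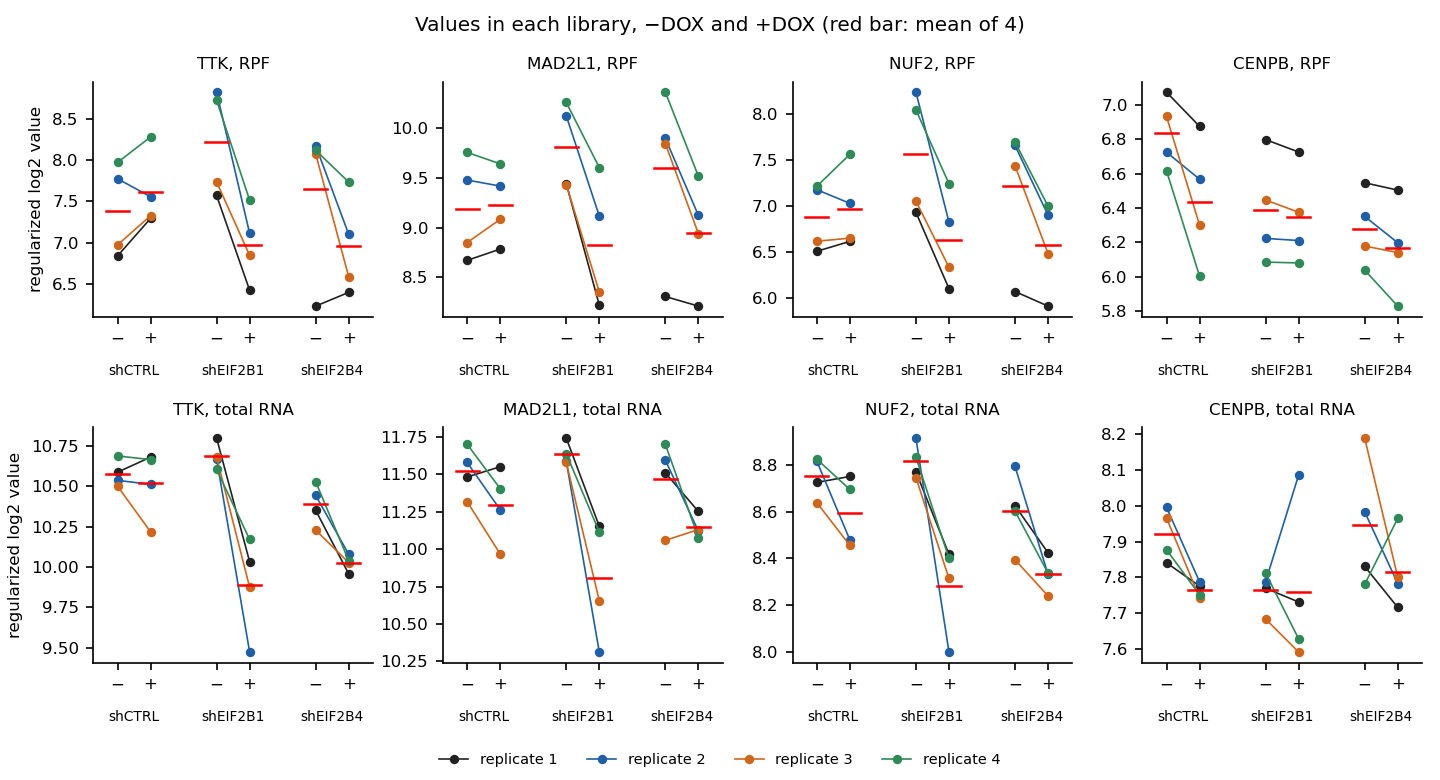
RPF (upper panels) and total RNA (lower panels) levels of TTK, MAD2L1, NUF2 and CENPB in every library (vertical axes, deposited regularized log2 values), with the -DOX and +DOX libraries of a line and replicate joined and red bars at the mean of 4. TTK RPFs in shEIF2B1 lie between 7.57 and 8.82 without DOX and between 6.43 and 7.52 with DOX, and replicate 1 of uninduced shEIF2B4 lies at 6.24.

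Members are given by their place in the kinetochore, and the layers were not tested against each other. Of 6 checkpoint genes 5 fell in RPFs: beside TTK and MAD2L1 these were BUB1B (BUBR1, -0.87), BUB1 (-0.64) and BUB3 (-0.28). ZW10, which brings dynein to kinetochores, had a response of -0.43 and missed the threshold (limma adjusted p = 0.101). Both genes grouped here as outer corona fell in RPFs, the kinesin CENPE by a response of -0.91 and CENPF by -0.78. In the KMN network 6 of 10 fell: NUF2, NDC80 (-0.97), KNL1 (-0.84), SPC25 (-0.66), DSN1 (-0.43) and MIS12 (-0.33). The other 4 of that network did not pass the test: ZWINT (0.085), PMF1 (0.18), NSL1 (-0.12) and SPC24 (-0.27). All 3 SKA genes fell, with responses of -0.76 (SKA2), -0.58 (SKA3) and -0.44 (SKA1).

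Of 17 genes of the centromere layer in RPFs, 6 fell: CENPK (-0.97), CENPI (-0.77), CENPW (-0.69), CENPC (-0.53), CENPN (-0.52) and CENPQ (-0.51), all parts of the network that reads the CENP-A nucleosome. CENPA itself, the centromeric histone, had a response of -0.22 that did not pass the test (limma adjusted p = 0.356). Values were close to 0 for CENPS (0.050), CENPX (0.066) and CENPP (0.051), none of which passed the test. In the passenger complex INCENP (-0.56) and CDCA8 (borealin, -0.41) fell, while AURKB (-0.28) and BIRC5 (survivin, 0.29) did not pass the test. Of the spindle kinases AURKA fell (-0.95), and PLK1 had a response of -0.36 (limma adjusted p = 0.104). The other CENP-named genes in the RPF table, CENPJ (a centriole protein, -0.36) and CENPV (-0.11), did not pass the test.

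CENPB, which binds a short motif in centromeric alpha-satellite DNA, was the member called higher. Its RPF levels in shEIF2B1 were 6.80, 6.22, 6.45 and 6.09 before and 6.73, 6.21, 6.38 and 6.08 after induction. The shCTRL levels were 7.08, 6.73, 6.93 and 6.62 and then 6.88, 6.57, 6.30 and 6.0. The response of 0.36 (SE 0.15, limma adjusted p = 0.0888) thus came with nearly level shEIF2B1 values and a fall of 0.40 in the control line, from a mean of 6.84 to 6.44. Between the induced lines alone CENPB was not higher in shEIF2B1 (difference -0.089, limma adjusted p = 0.738).

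**Figure D2:**
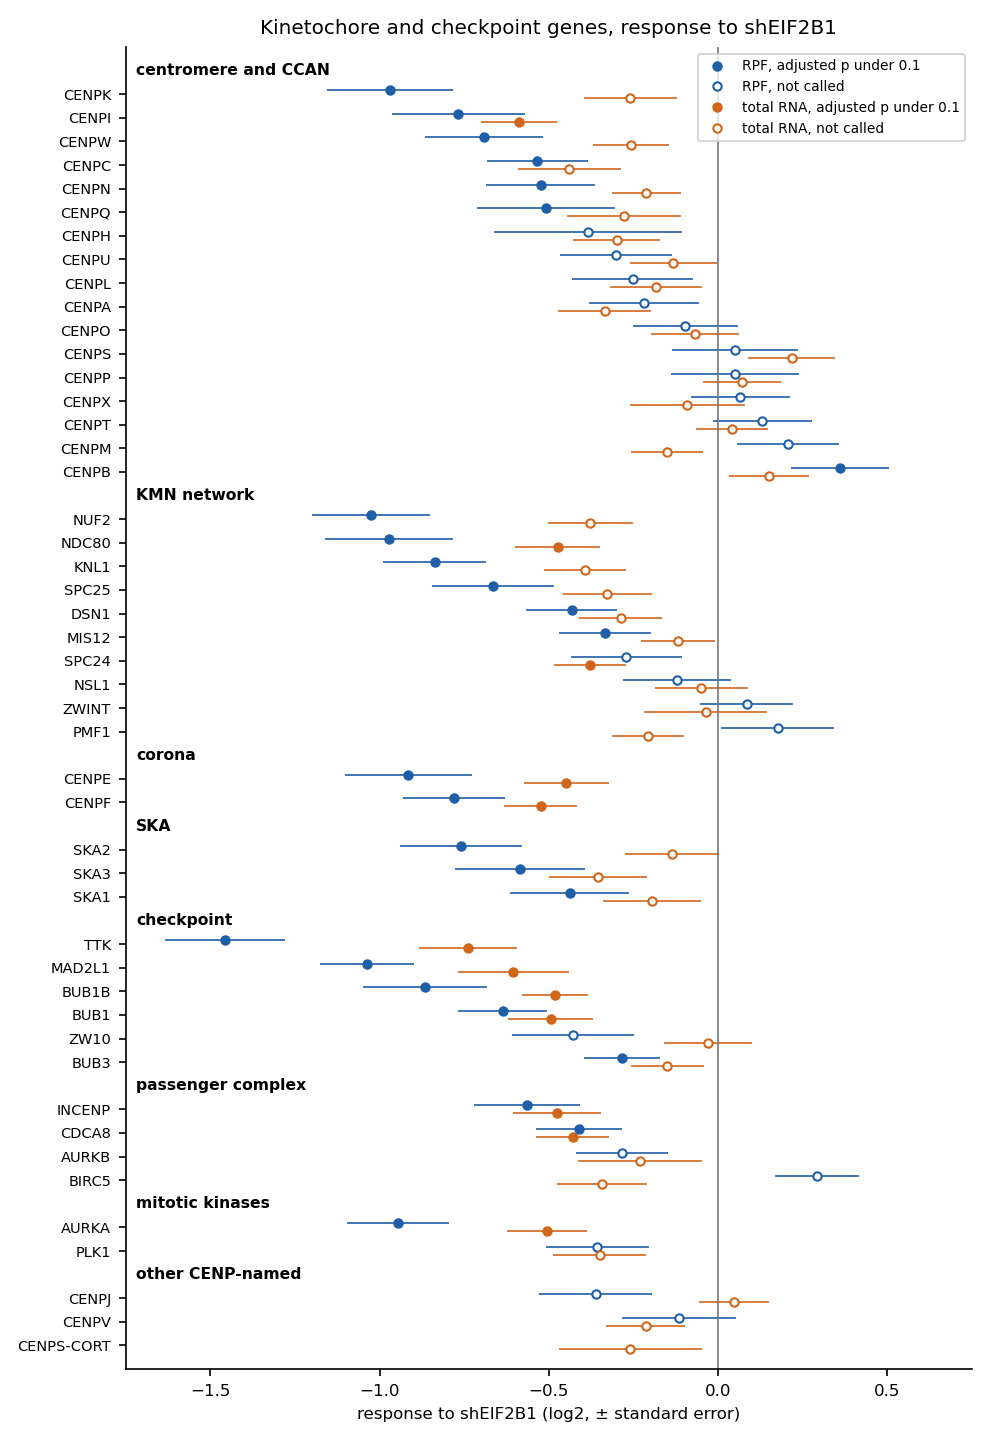
Responses of every member to shEIF2B1 (horizontal axis, log2, relative to shCTRL) in RPFs (blue) and total RNA (orange), with standard errors as bars, members grouped by subcomplex and filled points marking an adjusted p under 0.1. RPF responses run from -1.46 (TTK) to 0.36 (CENPB), and 37 of 46 are below 0.

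In total RNA the same line showed smaller falls in fewer members. After induction of shEIF2B1, 12 of 47 members fell and none rose, where 1.13% of all genes fell. The median response was -0.26, beside -0.0038 over all genes, and 42 of 47 responses were below 0. Of the 100 genes with the lowest total RNA responses, 9 were members. Those that fell were 4 checkpoint genes (TTK, MAD2L1, BUB1 at -0.49 and BUB1B at -0.48), both corona genes (CENPF at -0.52 and CENPE at -0.45), CENPI, AURKA (-0.51), the passenger genes INCENP (-0.48) and CDCA8 (-0.43), and the NDC80 complex genes NDC80 (-0.47) and SPC24 (-0.38). None of the 3 SKA genes passed the test in total RNA, where SKA3 had the lowest response of them (-0.35, limma adjusted p = 0.24). The count rested on few weeks: 1, 13, 4 and 2 members were called without replicate 1, 2, 3 or 4 of both lines. Shares of all genes are not given for these fits.

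TTK total RNA in uninduced shEIF2B1 was 10.80, 10.67, 10.68 and 10.60 in replicates 1 to 4, and 10.03, 9.47, 9.87 and 10.17 after induction. In shCTRL it was 10.59, 10.54, 10.50 and 10.69 without DOX and 10.68, 10.51, 10.22 and 10.66 with DOX. The shEIF2B1 groups did not overlap and the shCTRL groups did, and the response was -0.74 (SE 0.15, limma adjusted p = 0.00927). MAD2L1 total RNA fell from 11.74, 11.59, 11.58 and 11.64 to 11.15, 10.31, 10.65 and 11.11 in shEIF2B1. In shCTRL MAD2L1 was 11.48, 11.58, 11.32 and 11.70 without and 11.55, 11.26, 10.97 and 11.40 with DOX. The knockdown groups were again apart, with induced libraries more spread than uninduced ones, and the response was -0.61 (SE 0.16, limma adjusted p = 0.069).

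CENPI, a CCAN subunit that works in one complex with CENPH and CENPK, came next. Its total RNA was 7.95, 8.05, 8.21 and 8.08 in uninduced and 7.45, 7.33, 7.33 and 7.59 in induced shEIF2B1. The shCTRL values were 7.93, 7.99, 8.09 and 8.10 and then 7.87, 7.80, 7.97 and 8.20. The induced shEIF2B1 libraries were below all 12 others of these lines, and the response was -0.59 (SE 0.11, limma adjusted p = 0.00753).

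Within each line total RNA separated the groups more often than RPFs did. In shEIF2B1 all 4 induced libraries were below all 4 uninduced ones for 36 of 47 members in total RNA, a pattern held by 14.0% of all genes. In shEIF2B4 this was so for 27 of 47 (12.0% of all genes) and in shCTRL for 11 of 47 (3.26%). The corresponding numbers in RPFs, where weeks differed more in level, were 13 of 46 in shEIF2B1 (7.78% of all genes), 5 in shEIF2B4 (2.64%) and 2 in shCTRL (1.94%). The control line was itself not flat: with DOX alone 7 of 46 members fell in its RPFs (4.62% of all genes), among them BIRC5 (-0.58), ZWINT (-0.44) and CENPB, and 7 of 47 fell in its total RNA (2.18%), among them SKA3 (-0.41), CENPA and AURKA. On the same within-line footing 38 of 46 members fell in RPFs of shEIF2B1 (26.7% of all genes). In its total RNA 38 of 47 fell (16.8%) and 1, CENPT, rose (17.5%). In shEIF2B4 the counts were 32 of 46 in RPFs (12.0%) and 33 of 47 in total RNA (16.3%). All 32 members that fell in RPFs of shEIF2B4 were among the 38 that fell in RPFs of shEIF2B1, and 32 of the 33 of shEIF2B4 were among the 38 of shEIF2B1 in total RNA. The counts of shCTRL were unstable: 14 members were called in its RPFs without replicate 1 and 0 without any other one, and 22, 2, 0 and 0 in its total RNA without replicate 1, 2, 3 or 4. In RPFs of shEIF2B4 17, 16 and 15 were called without replicate 2, 3 or 4, and in its total RNA 21 without replicate 2. Shares of all genes are not given for these settings, so the counts do not show whether the members or the whole table changed.

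**Figure D3:**
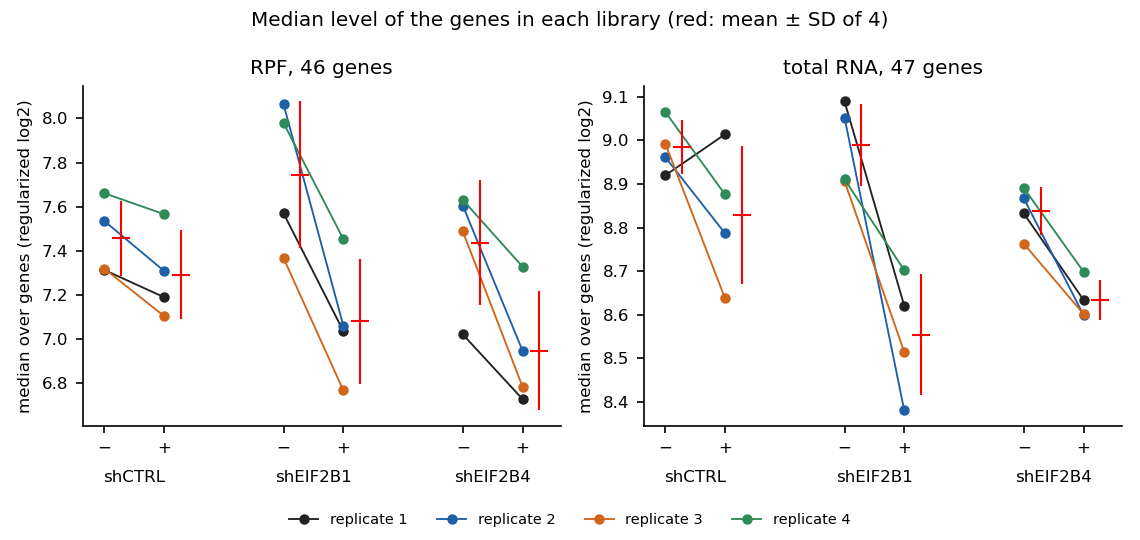
Median level over the members in each library (vertical axes, regularized log2) for RPFs and total RNA, with the -DOX and +DOX libraries of a line and replicate joined and the mean ± SD of 4 in red. In total RNA the shEIF2B1 medians are 8.91 to 9.09 without and 8.38 to 8.70 with DOX, and in RPFs they are 7.37 to 8.06 and 6.77 to 7.45.

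Many genes expressed in G2 and mitosis are known to carry a promoter element, the cell cycle genes homology region (CHR), TTTGAA, which is bound by the DREAM and MuvB complexes. RefSeq promoters (build GRCh38.p14) were matched for 38 of 47 members. TTTGAA was searched on either strand in the 150 bases from 100 before to 50 after the start given by the RefSeq entry. It was present in 16 of 38 members (42.1%), beside 8.46% of 27305 genes. Over the whole 300-base window it was present in 17 members (44.7%) and in 18.2% of genes. The CCAAT box (CCAAT, either strand, which can share 1 base with the CHR) was in 17 of the 38 in the shorter window (44.7%, 25.3% of genes). The element is shown for 6 members that fell in total RNA of shEIF2B1, with 30 bases each from the strand of the gene and the element in capitals (TTCAAA is the same element on the other strand).
BUB1B (chr15:40161034-40161063, + strand, element starting at -23): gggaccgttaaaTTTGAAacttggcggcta
CDCA8 (chr1:37692481-37692510, + strand, -23): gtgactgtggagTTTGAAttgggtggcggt
CENPF (chr1:214603215-214603244, + strand, 41): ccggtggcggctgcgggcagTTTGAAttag
INCENP (chr11:62123989-62124018, + strand, -10): tgagccttcagtTTTGAAaatcatagtttt
MAD2L1 (chr4:120066807-120066836, - strand, 25): tgcgtcgttactTTTGAAacgcttggcggg
NDC80 (chr18:2571542-2571571, + strand, -3): ccggcggagaatTTCAAAttcgaacggctt
Of these, BUB1B, CDCA8 and INCENP hold the element just before the start of the RefSeq entry, and CENPF and MAD2L1 just after it. That start differs from the GENCODE gene start given below for INCENP and MAD2L1, so these places hold for the RefSeq start alone. The total RNA responses to shEIF2B1 had a median of -0.37 over the 16 members with the element, of which 6 fell, and -0.21 over the 22 without it, of which 4 fell. This is a description of letters in a window, and the difference between these medians was not tested.

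Translation efficiency (TE, the RPF level less the total RNA level of the same lysate) compares both measures. In shEIF2B1 TE fell for 3 of 46 members, where 4.13% of all genes fell, and rose for 1, where 2.97% rose, so both shares lie near those of all genes. With all 24 lysates in one fit 0 members were called in TE in limma, with 9 at an unadjusted p under 0.05. The falls were in TTK (-0.72, SE 0.21, limma adjusted p = 0.0679), CENPK (-0.71, adjusted p = 0.0418) and NUF2 (-0.65, adjusted p = 0.0477). BIRC5 was the gene with higher TE (0.64, SE 0.15, adjusted p = 0.0366). Its RPF response was 0.29 and its total RNA response -0.34, neither of which passed the test. BIRC5 RPFs did not rise within shEIF2B1 on DOX: they fell there (-0.29, limma adjusted p = 0.0245), and fell more in shCTRL (-0.58, limma adjusted p = 0.0192). Of the 26 members called in RPFs 11 were also called in total RNA and 15 were not, and SPC24 was called in total RNA alone. Of these 26, 25 had total RNA responses below 0. A call in one measure and not in the other does not show that they differ, and the TE test is the one that compares them. Without replicate 1, 3 or 4 no member was called in TE, and without replicate 2 there were 7, with shares of all genes not given for these fits.

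The starting levels of the lines were unequal in RPFs. Before any DOX, 26 of 46 members were already higher in shEIF2B1 than in shCTRL (29.0% of all genes were higher) and 6 were lower (25.1%). The higher ones included CENPK (0.90), CENPE (0.88), TTK (0.82), NDC80 (0.72) and NUF2 (0.69), and the lower ones CENPB (-0.45), CENPM and BIRC5. In total RNA of the same lysates 0 of 47 members differed in limma, with 4 at an unadjusted p under 0.05, where 1.40% of all genes differed. The RPF response is computed from both ends, so the response of TTK holds a start 0.82 higher and an end 0.64 lower than that of shCTRL.

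Comparing induced lines alone, a contrast chosen after seeing the data, uses no uninduced library. A difference between the lines that was there before DOX therefore stays in it. In RPFs 11 of 46 members were lower in induced shEIF2B1 than in induced shCTRL (4.81% of all genes): TTK (-0.64), AURKA (-0.63), INCENP (-0.54), PLK1 (-0.50), SPC24, CDCA8, BUB1B, MAD2L1 (-0.41), AURKB, NUF2 (-0.34) and BUB1. In total RNA 19 of 47 were lower (2.70% of all genes), led by TTK (-0.63), CENPC (-0.54), CENPI (-0.54), AURKA (-0.52) and INCENP (-0.50). Of the 11 members lower in RPFs, 9 were among the 19 lower in total RNA. With replicate 1, 2, 3 or 4 of both lines left out, 7, 13, 6 and 9 members were lower in RPFs. The shares of all genes that were lower were then 2.60%, 4.71%, 2.54% and 3.76%. For total RNA the member counts were 9, 25, 7 and 8, beside 1.16%, 6.89%, 0.695% and 1.30% of all genes.

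RPF responses of the members ran with the base composition of their coding sequences. The share of codons with G or C as the last base (GC3) had a median of 45.1% over members and 59.6% over all genes of the RPF table, and ran from 28.1% in CENPC to a highest value of 79.6%. The first 20 codons of 3 members of low GC3 whose RPFs and TE fell in shEIF2B1, of MAD2L1, whose RPFs fell, and of INCENP and CENPB, which have high GC3, are shown from the annotated coding sequences of GENCODE release 29, with the last base of each codon in capitals.
TTK: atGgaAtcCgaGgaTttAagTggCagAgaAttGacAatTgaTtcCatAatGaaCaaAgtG
CENPK: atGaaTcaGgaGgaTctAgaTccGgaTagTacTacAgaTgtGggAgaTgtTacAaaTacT
NUF2: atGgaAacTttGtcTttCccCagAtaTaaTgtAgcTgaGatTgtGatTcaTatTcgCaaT
MAD2L1: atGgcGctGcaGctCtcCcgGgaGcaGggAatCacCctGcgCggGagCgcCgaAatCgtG
INCENP: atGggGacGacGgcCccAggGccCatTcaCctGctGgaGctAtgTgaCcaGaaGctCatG
CENPB: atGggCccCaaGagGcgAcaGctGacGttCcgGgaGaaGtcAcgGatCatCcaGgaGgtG
G or C closes 9 of 20 of these codons in TTK (chr6:80003887-80042527, + strand, GRCh38), 5 in CENPK (chr5:65517766-65563171, - strand) and 7 in NUF2 (chr1:163266576-163355764, + strand). In INCENP (chr11:62123973-62153163, + strand) it closes 16, and in CENPB (chr20:3783851-3786690, - strand) 18. MAD2L1 (chr4:120055608-120067074, - strand) also has 18 of 20, although G or C closes 45.1% of the codons of its whole coding sequence and its RPF response was -1.04, so the start of a coding sequence need not share the composition of the whole.

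Of the 45 members with a matched coding sequence 32 had a GC3 below the median of all genes. In shEIF2B1 24 of these 32 fell in RPFs (28.4% of all genes of low GC3 fell), with a median response of -0.56 beside -0.21 over all low-GC3 genes. Of the 13 members with high GC3 1 fell, INCENP, and 1 rose, CENPB, and their median was 0.066. Among all high-GC3 genes 1.98% fell, 1155 of 5393 rose, and the median was 0.16. Across the 45 members the RPF response had a Pearson r with GC3 of 0.69 (Spearman rho 0.73), and across 10786 genes r was 0.61. The genes share libraries, so these are descriptions across genes, not tests. Starting levels went the other way, with r = -0.87 between GC3 and the RPF difference of uninduced shEIF2B1 from uninduced shCTRL, and in the induced lines r was -0.12. The response is the induced difference less the uninduced one, so its r and that of the starting levels are not separate observations. In total RNA the response had an r of 0.30 with GC3 (46 members).

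The single RPF libraries also differed along GC3. The Spearman rho between GC3 and each library's deviation from the gene means, over all genes, ran from 0.774 in uninduced shCTRL of replicate 1 to -0.743 in uninduced shEIF2B1 of replicate 2. All libraries of week 1 were above 0 and all of week 4 below 0. With each library's trend on the GC content of the whole coding sequence removed, 15 of 45 matched members were called in RPFs of shEIF2B1, all lower, with a median of -0.18 over the 45, where 7.96% of all genes were called in either direction. They included TTK (-0.97), INCENP (-0.78) and MAD2L1 (-0.76), and 12 of the 15 were called without this step as well. In TE 0 members were called after it in limma, with 3 at an unadjusted p under 0.05.

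Depletion of eIF2Bδ gave responses of the same sign but few that passed the test. In shEIF2B4 1 of 46 members fell in RPFs, CENPF, where 0.870% of all genes fell. The median over members was -0.28, 40 of 46 were below 0 and 16 had an unadjusted p under 0.05. TTK had an RPF response of -0.92 (SE 0.30, limma adjusted p = 0.156), NUF2 of -0.73, BUB1B of -0.71 and MAD2L1 of -0.70, none of which passed. CENPF RPFs were 8.81, 9.95, 9.59 and 9.83 in uninduced and 8.30, 9.13, 8.76 and 9.58 in induced shEIF2B4. In shCTRL they were 9.07, 9.68, 9.25 and 9.59 and then 9.04, 9.61, 9.30 and 9.77. The shEIF2B4 library was lower after induction in each week, with overlap between the groups, and the response was -0.64 (SE 0.17, limma adjusted p = 0.0786).

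The library that stood apart is plain in the RPFs of TTK, which was picked for this after its values were seen. In replicates 1 to 4 they were 6.24, 8.17, 8.07 and 8.12 in uninduced shEIF2B4 and 6.40, 7.10, 6.59 and 7.73 after induction. The 3 other uninduced libraries were above all 4 induced ones, and replicate 1 was below every one of them. Without that lysate, an alternative added after seeing the data, 22 of 46 members fell in RPFs (10.0% of all genes), the median was -0.37, and TTK had a response of -1.23 (SE 0.21, limma adjusted p = 0.00111). TE responses of shEIF2B4 went from 0 of 46 called in limma (5 at an unadjusted p under 0.05, 0.0923% of all genes called) to 14 lower (12.5% of all genes). The GC3 gradient of that library had a rho of 0.724, against -0.56 to -0.69 in the other 3 weeks of its group. A rho above 0 was not particular to it, since the replicate 1 libraries of all lines had values from 0.359 to 0.774, and uninduced shCTRL had -0.022, 0.70 and -0.34 in replicates 2 to 4. Within shEIF2B4, 38 of 46 members fell in RPFs on DOX without that lysate, with a median of -0.50. The share of all genes that fell in that setting is not given here, so this count does not set the members apart from other genes.

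In total RNA that lysate did not stand apart, with a median over members of 8.83 against 8.76 to 8.89 in the other 3 weeks. There 3 of 47 members fell in shEIF2B4 (1.62% of all genes), 12 had an unadjusted p under 0.05, and the median was -0.11. CENPF went from 12.04, 11.93, 11.97 and 11.87 to 11.43, 11.32, 11.51 and 11.58, against 12.06, 12.00, 12.08 and 12.07 and then 12.04, 11.81, 11.92 and 12.13 in shCTRL. The induced shEIF2B4 libraries lay below all others of those lines, and the response was -0.42 (SE 0.10, limma adjusted p = 0.0256). SPC24, which ties the NDC80 complex to the rest of the kinetochore, went from 7.65, 7.76, 7.97 and 7.77 to 7.33, 7.48, 7.37 and 7.48. In shCTRL it was 7.68, 7.80, 7.79 and 7.77 and then 7.69, 7.80, 7.78 and 7.74. Its groups were apart in shEIF2B4 and level in shCTRL, with a response of -0.36 (SE 0.096, limma adjusted p = 0.0461). BUB1B, which builds the checkpoint complex that inhibits CDC20, went from 9.14, 9.24, 9.33 and 9.31 to 8.86, 8.62, 8.81 and 8.83. The shCTRL values were 9.30, 9.25, 9.32 and 9.46 without and 9.23, 9.14, 9.09 and 9.36 with DOX. The knockdown groups did not overlap, and the response was -0.35 (SE 0.098, limma adjusted p = 0.0607). There were 1, 0, 3 and 0 calls among members without replicate 1, 2, 3 or 4.

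Levels at the ends of the experiment add to this. In uninduced shEIF2B4 3 of 46 members were lower in RPFs than in shCTRL (12.4% of all genes): CENPB (-0.56), INCENP (-0.41) and PLK1 (-0.34). These counts turned on single weeks: 29 members were called in limma without replicate 1 of both lines, and 0 without any other one. The direction of those 29 and the share of all genes are not given here. With all replicates 27 of 46 differences were above 0, with a median of 0.089. Relative to the median difference of all genes, -0.13, 0 were called in limma. In total RNA 0 of 47 differed in limma, with 10 at an unadjusted p under 0.05 (2.32% of all genes called). Between the induced lines, again chosen after seeing the data, 24 of 46 members were lower in RPFs of shEIF2B4 (25.3% of all genes), led by INCENP (-0.74), TTK (-0.66) and BUB1B (-0.60). In total RNA 29 of 47 were lower (19.1% of all genes), led by CENPF (-0.52) and TTK (-0.49). The median of all genes also differed between induced shEIF2B4 and induced shCTRL, by -0.13 in RPFs, and with each library centred on its median 11 members were lower in RPFs (8.37% of all genes) and 24 in total RNA (15.3%). When replicate 1, 2, 3 or 4 of both lines was left out, RPFs of 25, 17, 14 and 13 members were lower. Among all genes 31.6%, 17.7%, 12.8% and 11.5% were then lower, so the RPF counts moved together with the whole table. For total RNA the member counts were 22, 24, 30 and 20, beside 16.2%, 12.3%, 16.2% and 12.8% of all genes.

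The responses of both lines were set against each other in one fit over all 24 lysates. None of the 46 members differed between shEIF2B1 and shEIF2B4 in RPFs (0.00897% of all genes did) in limma, with 2 at an unadjusted p under 0.05. In total RNA 0 of 47 differed in limma (0.10% of all genes), with 9 at an unadjusted p under 0.05, and in TE 0 of 46 differed (0% of all genes), with 0 at an unadjusted p under 0.05. Without the uninduced shEIF2B4 lysate of replicate 1, 0 of 46 differed in limma in RPFs (0 at an unadjusted p under 0.05, median -0.052) and in TE (2 at an unadjusted p under 0.05). The RPF differences most below 0 among members were those of CENPK (-0.56) and AURKA, for which it was -0.55 (SE 0.22, 95% confidence interval -1.01 to -0.099, limma adjusted p = 0.746). For TTK the RPF difference was -0.54 (95% confidence interval -1.11 to 0.029), and the total RNA difference was -0.44 (-0.73 to -0.15, limma adjusted p = 0.26). For MAD2L1 the total RNA difference was -0.51 (-0.86 to -0.16, limma adjusted p = 0.277). The intervals reach from larger falls in shEIF2B1 to near 0, so these data do not show that the lines act alike. Both responses are measured against the same shCTRL libraries, and a likeness between them is in part a likeness of that shared control.

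**Figure D4:**
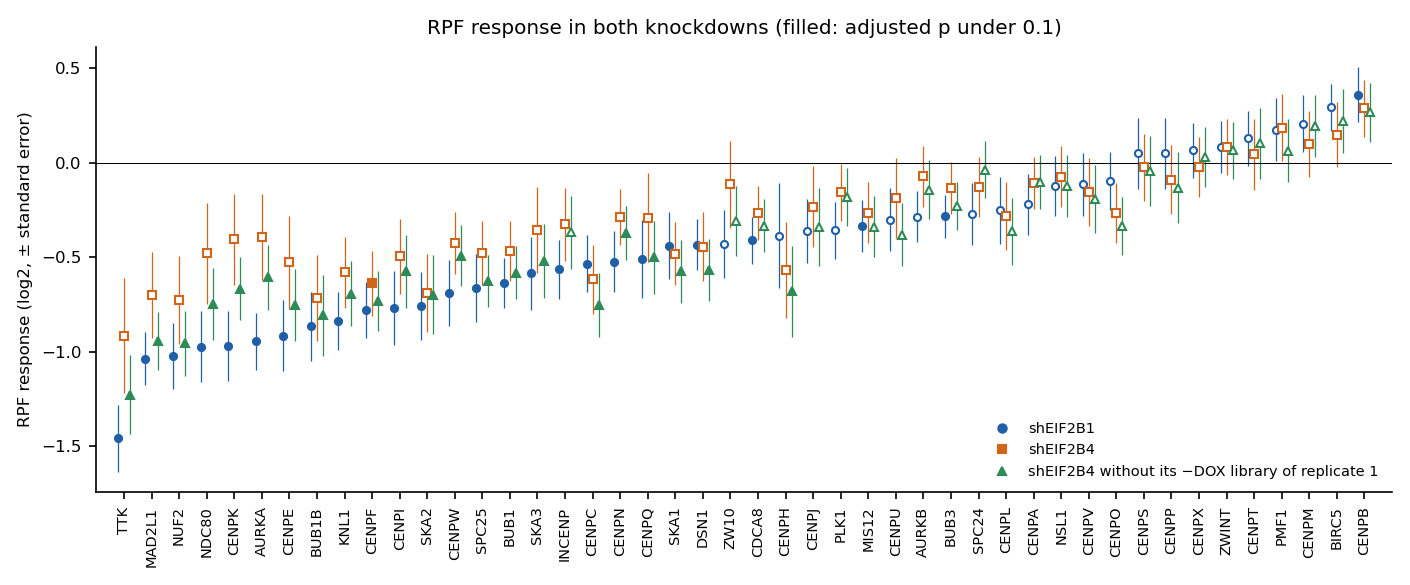
RPF response of each member (vertical axis, log2, with standard errors as bars and filled points for an adjusted p under 0.1) to shEIF2B1, to shEIF2B4, and to shEIF2B4 without its uninduced library of replicate 1, all relative to the same shCTRL libraries. TTK lies lowest in each, at -1.46, -0.92 and -1.23.

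Other cell-cycle gene lists were read on the same tests, where 15.3% of all genes fell and 12.0% rose in RPFs of shEIF2B1 and 1.13% fell in its total RNA. Of 15 centromere loading and checkpoint partners 8 fell in RPFs, among them SGO2 (-0.92) and SGO1 (-0.71), which protect sister chromatid cohesion, with a list median of -0.48. In total RNA only SGO2 of the 15 passed the test. Of 15 mitotic entry and spindle genes listed in RPFs, 12 fell, including TPX2 (-1.12), DLGAP5 (-1.11) and CKAP5 (-1.07), and 7 of 16 fell in total RNA. Of 18 subunits and partners of the anaphase promoting complex 7 fell in RPFs, among them CDC27 (-0.81), 3 rose (ANAPC2, ANAPC5 and ANAPC16), and 0 were called in total RNA in limma, with 4 at an unadjusted p under 0.05. Of 18 S phase genes 8 fell in RPFs (median -0.44) and 2, MCM2 and PCNA, in total RNA. In RPFs of shEIF2B4, where 0.870% of all genes fell, the members of these lists called in limma were 2 of 15 partners, 0 of 18 anaphase promoting complex genes (3 at an unadjusted p under 0.05), 1 of 15 mitotic entry genes and 0 of 18 S phase genes (0 at an unadjusted p under 0.05). Without the uninduced lysate of replicate 1, where 10.0% of all genes fell, 7 partners, 4 anaphase promoting complex genes, 11 mitotic entry genes and 5 S phase genes fell, and 1 anaphase promoting complex gene rose. The lists were not tested for a difference between the lines.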

How the data were processed

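The authors aligned reads to GENCODE release 38 transcripts with Bowtie2, counted RPFs of 28 to 33 nt on coding sequences and quantified total RNA with RSEM, kept the most expressed transcript per gene, and deposited regularized log2 values from DESeq2, made separately for RPFs and total RNA. Regularization shrinks differences of genes with low counts, and read counts were not used here, so depth and counting error are not given. Adapters were removed with cutadapt 1.18. Replicate 3 was sequenced in 2 runs that were joined. From these values, R 4.3.3 with limma 3.58.1 fitted week, line, DOX and their product, with a mean-dependent prior variance, on the 16 libraries of each knockdown line and shCTRL, two-sided. Replicate numbers are weeks: same-numbered libraries deviated together in RPFs (mean r 0.559, 52 of 60 pairs over 0.1) and less in total RNA (0.183, 37 of 60), and the study's model includes them. TE was log2 RPF less log2 total RNA of 1 lysate. Self-test data with known changes were used to test the fits. Members given in every library were the 3 largest falls and rises among called members whose direction held in all 4 weeks. The rule for members used gene symbols and no measured value, but the genes and lists were chosen with earlier results of these data known. Replicates were separate weeks of cultures of 1 pool per line, so p-values measure that spread. Positions and coding sequences came from GENCODE release 29 (GRCh38) and promoters from RefSeq. Of the tables' sample columns 0 were left out. The coding start of 1 member is not reported here.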

Additional observations from a re-analysis of the deposited data

Results flagged for a closer look

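In RPFs of uninduced shEIF2B4, replicate 1 lay far from the other 3 libraries for 2 of the members given in every library. TTK was at 6.24 there and at 8.07 to 8.17 in the others, and NUF2 was at 6.07 there and at 7.43 to 7.69 in the others. Among 108 groups of 4 libraries checked, these were the 2 that met Dixon's criterion, which chance meets in about 1 of 20 groups. Both lie in the library described above, where 8 of all 46 members and 11.6% of all genes met that criterion. The cause was not tested.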

How the results depend on the processing

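Directions of the 11 named responses held in every alternative but 1: CENPB in RPFs of shEIF2B1 was at -0.089 between induced lines alone. These responses were picked for the same direction in all 4 weeks, so leaving out 1 week could not reverse any of them. Their tests held less often. Across the alternatives the highest limma adjusted p was 0.50 for TTK RPFs in shEIF2B1 and 0.98 for CENPF RPFs in shEIF2B4. Of the 11, only CENPI total RNA in shEIF2B1 stayed under 0.1 throughout (highest limma adjusted p = 0.0751). Counts of members called changed as well. Without the replicate block, which ignores the pairing by week, RPF and TE calls in shEIF2B1 went from 26 and 4 to 0 and 0, total RNA calls from 12 to 7, and RPF calls in shEIF2B4 from 1 to 0. Within lines they went from 7 to 0 (shCTRL, RPFs and total RNA each), 38 to 12 (shEIF2B1 RPFs) and 32 to 1 (shEIF2B4 RPFs), and between uninduced lines from 32 to 0 (shEIF2B1 RPFs) and 3 to 0 (shEIF2B4 RPFs). It moved the other counts by at most 1.5 times.

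With the coding GC trend removed, counts were 15 (RPFs) and 0 (TE) in shEIF2B1 and 0 (RPFs) and 8 (total RNA) in shEIF2B4. At an adjusted p under 0.05 they were 5 in total RNA of shEIF2B1 and 0 in RPFs of shEIF2B4. All 24 libraries in one fit gave 0 for TE of shEIF2B1 and 7 for RPFs of shEIF2B4, and leaving out the lowest 25% of genes gave 2 for TE of shEIF2B1. Centring each library on its median gave 0 for RPFs of uninduced shEIF2B4. Between induced lines alone the counts were 11 (RPFs) and 19 (total RNA) for shEIF2B1 and 24 and 29 for shEIF2B4. Without the uninduced shEIF2B4 lysate of week 1 they were 22 (RPFs) and 14 (TE) for shEIF2B4, and 29 between uninduced lines in RPFs.

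With each replicate left out in turn the counts ranged from 17 to 22 (RPFs), 1 to 13 (total RNA) and 0 to 7 (TE) in shEIF2B1, and from 0 to 20, 0 to 3 and 0 to 10 in shEIF2B4. Within lines they ranged from 0 to 14 (RPFs) and 0 to 22 (total RNA) in shCTRL, 35 to 37 and 33 to 41 in shEIF2B1, and 15 to 38 and 21 to 32 in shEIF2B4. Between uninduced lines they ranged from 27 to 35 (shEIF2B1 RPFs), 0 to 29 (shEIF2B4 RPFs) and 0 to 1 (shEIF2B4 total RNA). Where no share of all genes is given beside a count, it does not show whether the members or the whole table changed. Apart from fewer libraries or genes in some fits, the cause of these changes was not tested. Depth limits all counts by an amount not given here, because read counts were not used.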
